A study of Homo sapiens with 5 samples.

Results

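The transcription factors that induce epithelial-mesenchymal transition (EMT) were examined in gefitinib-resistant HCC827/GR cells and their gefitinib-sensitive parental HCC827 cells by RNA-sequencing. The 10 genes ZEB1, ZEB2, SNAI1, SNAI2, SNAI3, TWIST1, TWIST2, PRRX1, FOXC2 and TCF4 were chosen by symbol, without use of their values. They had 13 of the 37181 entries in the table of genes and assembled loci, and the entry with the highest mean over the 5 libraries was used for each symbol. HCC827 is a human lung adenocarcinoma cell line with an in-frame deletion in exon 19 of EGFR, which both groups carry. HCC827/GR cells were derived from it by treatment with rising doses of gefitinib, an EGFR tyrosine kinase inhibitor, for more than 6 months. There were 3 libraries of HCC827/GR cells (replicates 1, 2 and 3) and 2 libraries of HCC827 cells (replicates 2 and 3). All resistant libraries came from 1 derived line, and no source says whether the replicates were separate cultures, so the p-values measure the spread between these libraries, which may be technical.

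EMT is the change by which epithelial cells loosen their junctions, lose polarity and take on a motile, mesenchymal form. ZEB1 and ZEB2 are zinc-finger homeodomain proteins and SNAI1, SNAI2 and SNAI3 are zinc-finger proteins. They bind E-box sequences such as CAGGTG in promoters of epithelial genes, E-cadherin among them, and recruit corepressors. TWIST1, TWIST2 and TCF4 are basic helix-loop-helix proteins, PRRX1 is a homeodomain protein and FOXC2 is a forkhead protein. In epithelial cells the miR-200 family holds ZEB1 and ZEB2 mRNA down, and the ZEB proteins in turn repress the miR-200 genes.

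Values are FPKM, a measure scaled to transcript length and to the mapped fragments of each library, which allows levels of different genes to be compared per length. The libraries had 27378 to 28285 entries above 0, summed to 138854 to 167722 FPKM, and had relative depths of 0.927 to 1.26, with replicate 1 of HCC827/GR cells as 1, read from the lowest values. Read counts are unknown, so no counting error is given. Differences were tested with limma on log2(FPKM + 1). The test covered 16189 entries, those whose mean reached 0.5 FPKM, and a gene was called changed at a Benjamini-Hochberg adjusted p under 0.05 over all of them. A log2 fold change on this scale understates the change of low genes. With 3 libraries against 2, the exact permutation test of a single gene cannot give a p below 0.1.

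Of the 10 factors, 6 were expressed at 1 FPKM or more in at least 1 of the cell lines. These were ZEB1, ZEB2, SNAI1, SNAI2, SNAI3 and TWIST2. All 6 reached this level as a mean in HCC827/GR cells, and 4 did in HCC827 cells, where ZEB2 and TWIST2 were below it. The same 6 were expressed at a limit of 0.5 or 0.1 FPKM. TWIST1, PRRX1, FOXC2 and TCF4 were close to 0 in every library, and the highest value among them was 0.0373 FPKM. However, the TWIST1 entry holds no coding transcript and does not show whether its mRNA was present. The PRRX1 and TCF4 entries list 1 of 3 and 4 of 63 coding GENCODE transcripts, so their low values cover only those listed. The 6 expressed factors were also the 6 that could be tested. Of these, 2, ZEB1 and ZEB2, were called higher in HCC827/GR cells, as were 5.26% of all tested entries. However, ZEB2 passed the filter on low values through HCC827/GR cells alone, so it could be tested only as higher there. With a filter at 1 FPKM the count of factors called higher was 1. None of the 6 was called lower by limma, against 5.71% of all entries. However, 1 of them, SNAI1, was lower at an unadjusted limma p under 0.05, as were 2242 of all 16189 tested entries. The plot of all 10 factors by library shows the split between the expressed genes and those listed near 0.

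**Figure D1:**
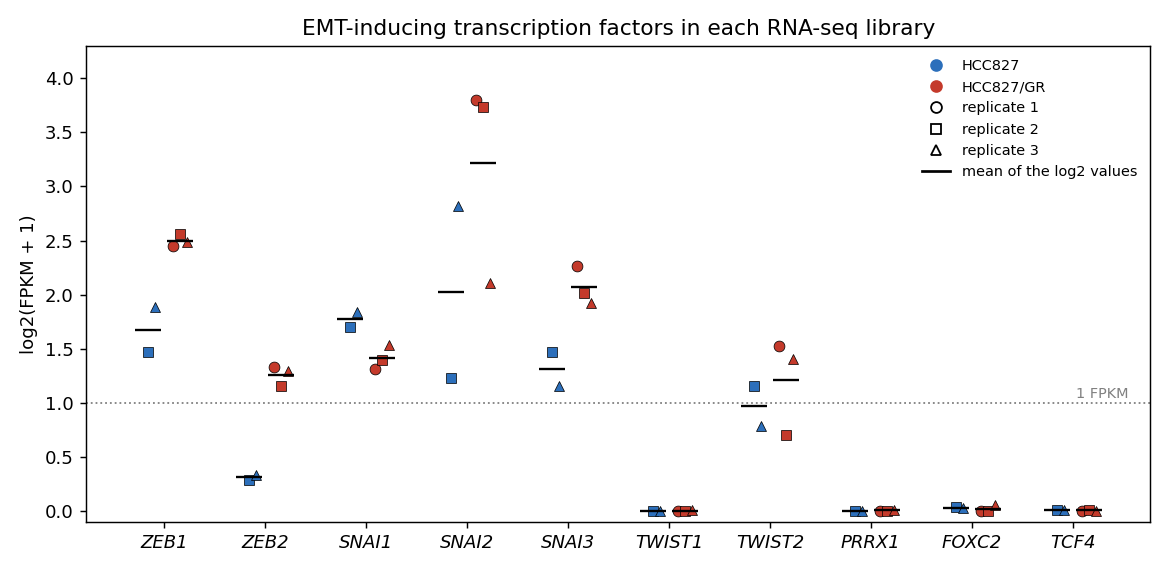
Level of the 10 EMT-inducing transcription factors as log2(FPKM + 1) in each library of HCC827 cells (blue) and HCC827/GR cells (red), with the mean of the log2 values as a bar and 1 FPKM as a dotted line. ZEB1 and ZEB2 were higher in all 3 HCC827/GR libraries than in both HCC827 libraries, SNAI2 overlapped between the cells, and TWIST1, PRRX1, FOXC2 and TCF4 did not exceed 0.0373 FPKM.

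ZEB1 (chr10:31318495-31529814, plus strand, GRCh38) had 4.46, 4.88 and 4.59 FPKM in replicates 1, 2 and 3 of HCC827/GR cells and 1.77 and 2.69 FPKM in replicates 2 and 3 of HCC827 cells. Its entry lists 2 of 9 coding GENCODE transcripts. The groups did not overlap, and the resistant libraries were close to each other while the parental libraries lay further apart. The means were 4.65 ± 0.214 FPKM (SD, n = 3) and 2.23 ± 0.650 FPKM (SD, n = 2), a ratio of 2.08. The log2 fold change of FPKM + 1 was 0.82 (standard error 0.15, 95% interval 0.43 to 1.21, limma adjusted p = 0.0372), and the exact permutation p was 0.1, the smallest possible. On this scale ZEB1 did not meet the study's threshold of a fold change of at least 2 at a p under 0.05, and neither did any of the other 5 tested factors, where 2.96% of all entries met it upward and 3.97% downward. With a pseudocount of 0.1 the log2 fold changes of ZEB1, ZEB2 and SNAI3 were 1.05, 2.14 and 1.06, each past 2-fold at an unadjusted limma p under 0.05. The share of all entries that met the threshold with this pseudocount was not counted, so these 3 have no background to be set against. The call was lost without replicate 1, 2 or 3 of HCC827/GR cells or replicate 2 of HCC827 cells, with limma adjusted p of 0.108, 0.110, 0.09999 and 0.0925, and with no filter on low values (0.0720) or a library-size covariate (0.159). The antisense gene ZEB1-AS1, whose reads cannot be told from those of ZEB1 where they overlap unless strand was used, had at most 0.251 FPKM.

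ZEB2 (chr2:144364364-144524583, minus strand, GRCh38) had 1.51, 1.22 and 1.45 FPKM in HCC827/GR cells and 0.219 and 0.259 FPKM in HCC827 cells. Each resistant library was far above both parental libraries, in which ZEB2 was barely detected. The means were 1.39 ± 0.149 FPKM (SD, n = 3) and 0.239 ± 0.0284 FPKM (SD, n = 2), a ratio of 5.83, and the log2 fold change was 0.95 (standard error 0.12, 95% interval 0.62 to 1.27, limma adjusted p = 0.0173, exact permutation p = 0.1). With a pseudocount of 0.1 in place of 1 the log2 fold change was 2.14. ZEB2 passed the filter on low values through its level in HCC827/GR cells alone, so it could enter the test only as a gene higher there. Without any 1 of the 5 libraries the limma adjusted p was between 0.0507 and 0.0733, so the call rested on having all 5, and it was 0.0504 with no filter and 0.101 with a library-size covariate. A second entry under the symbol ZEB2, an assembled transcript with no annotated one, had 2.24 FPKM in replicate 2 of HCC827/GR cells, 0.419 FPKM in replicate 3 of HCC827 cells and 0 in the other 3 libraries. With this entry added, the limma adjusted p of ZEB2 was 0.123.

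Together, ZEB1 and ZEB2 summed to 5.97, 6.11 and 6.04 FPKM in HCC827/GR cells and to 1.99 and 2.95 FPKM in HCC827 cells. The sum was thus nearly the same in the 3 resistant libraries, although either gene alone varied more.

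Both ZEB genes are classical targets of the miR-200 family, whose seed (bases 2 to 8) pairs with sites in the 3′ UTR. The mature sequences from RefSeq (GRCh38.p14) are shown with the seed in capitals, since the 2 seeds of the family differ in a single base.
miR-200a-3p: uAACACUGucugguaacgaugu
miR-141-3p: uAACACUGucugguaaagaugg
miR-200b-3p: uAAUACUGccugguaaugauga
miR-200c-3p: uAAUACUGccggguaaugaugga
miR-429: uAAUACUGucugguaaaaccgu
The sites are CAGTGTT for the first pair and CAGTATT for the other 3. For each factor, the coding GENCODE 29 transcript with the longest 3′ UTR was searched. The 3′ UTR of ZEB1 (2549 bases) held 3 and 6 matches to these sites and that of ZEB2 (5370 bases) held 4 and 5. Of 2355 3′ UTRs within 20% of the length of that of ZEB1, itself included, 0.0425% held at least as many matches to both sites together. Of 1104 UTRs of like length to that of ZEB2, itself included, the share was 0.181%. Both genes are known targets of the family, so these shares were partly set by their choice. The 3′ UTR of TCF4 held 3 matches and that of SNAI2 held 1, while SNAI1, SNAI3, TWIST1, TWIST2, PRRX1 and FOXC2 held none. One match in each ZEB gene is shown with the site in capitals.
ZEB1, bases 1243 to 1249 of the UTR: ctgatttttacctatCAGTATTa
ZEB2, bases 392 to 398 of the UTR: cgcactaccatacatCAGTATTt
ZEB1 and ZEB2 each held 9 matches in all, and SNAI3, which was just outside the threshold for a call, held none. Whether the sites bear on the levels was not tested. The miRNAs themselves were not measured here. A further miRNA, miR-205-5p, has another seed, with 1 match to its site in the 3′ UTR of ZEB1 and 0 in that of ZEB2. Of the UTRs of like length to that of ZEB1, 19% held at least 1. The host transcripts of miR-200c and miR-205, singled out after their values were seen, were low in every library. MIR200CHG was at 0.0582, 0 and 0 FPKM in HCC827/GR cells and 0.179 and 0.139 FPKM in HCC827 cells. MIR205HG was at 0 in HCC827/GR cells and at 0.0787 and 0.0299 FPKM in HCC827 cells. Neither passed the filter.

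SNAI1 (chr20:49982999-49988886, plus strand, GRCh38), which encodes Snail, had 1.49, 1.64 and 1.90 FPKM in HCC827/GR cells and 2.26 and 2.59 FPKM in HCC827 cells. It was the only 1 of the 6 expressed factors with a lower mean in the resistant cells, 1.67 ± 0.209 FPKM (SD, n = 3) against 2.42 ± 0.232 FPKM (SD, n = 2). The groups did not overlap, but the log2 fold change of -0.36 (standard error 0.12, 95% interval -0.66 to -0.05) had a limma adjusted p of 0.138. It kept its sign under all 14 alternatives, from -0.51 to -0.29, and was called under none of them.

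SNAI2 (chr8:48917604-48921740, minus strand, GRCh38), which encodes Slug, was the most abundant and the most variable of the 10. It had 12.9, 12.3 and 3.31 FPKM in HCC827/GR cells and 1.34 and 6.07 FPKM in HCC827 cells. Replicate 3 of HCC827/GR cells lay between the parental libraries, so the groups overlapped. The means were 9.51 ± 5.38 FPKM (SD, n = 3) and 3.71 ± 3.35 FPKM (SD, n = 2), and the log2 fold change of 1.19 had a standard error of 0.74 and a 95% interval from -0.74 to 3.11 (limma adjusted p = 0.374, exact permutation p = 0.3). The interval thus held both a fall and a large rise.

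SNAI3 (chr16:88677682-88686493, minus strand, GRCh38), the least studied SNAI gene, had 3 entries. The one with the highest mean, used here, is an assembled transcript with no annotated one, and it had 3.82, 3.04 and 2.79 FPKM in HCC827/GR cells and 1.76 and 1.23 FPKM in HCC827 cells. Its groups did not overlap, and its means were 3.21 ± 0.536 FPKM (SD, n = 3) and 1.5 ± 0.374 FPKM (SD, n = 2). The log2 fold change was 0.76 (standard error 0.16, 95% interval 0.33 to 1.18), with a limma adjusted p of 0.0539, just outside the threshold, and of 0.0444 with median-ratio scaling and 0.0385 with quantile normalization. The entry that holds the annotated SNAI3 transcript had 2.33, 2.32 and 1.84 FPKM against 1.75 and 1.5 FPKM. Its difference was smaller, with a log2 fold change of 0.27 (standard error 0.12, limma adjusted p = 0.257), and the third entry was at 0.49 (standard error 0.23, limma adjusted p = 0.253). Whether the used entry measures SNAI3 mRNA is therefore uncertain. The antisense gene SNAI3-AS1 had 1.42, 0 and 0 FPKM in HCC827/GR cells and 1.03 and 1.81 FPKM in HCC827 cells, with overlapping groups (log2 fold change -0.83, standard error 0.47, limma adjusted p = 0.334).

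TWIST2 (chr2:238848032-238910543, plus strand, GRCh38) had 1.88, 0.624 and 1.65 FPKM in HCC827/GR cells and 1.23 and 0.726 FPKM in HCC827 cells, so the groups overlapped and replicate 2 of the resistant cells was the lowest of all 5 libraries. The log2 fold change was 0.24 (standard error 0.30, 95% interval -0.55 to 1.02, limma adjusted p = 0.674). TWIST1 (chr7:19020991-19117672, minus strand) was listed at 0 in 4 libraries and at 0.00657 FPKM in replicate 3 of HCC827/GR cells. Its entry lists 1 of the 3 GENCODE transcripts and 0 of 1 coding transcripts, so the protein-coding TWIST1 mRNA was not measured by it.

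PRRX1 (chr1:170662728-170739419, plus strand) had 0, 0.000889 and 0.00748 FPKM in HCC827/GR cells and 0 in each HCC827 library. Its entry lists 1 of 3 coding GENCODE transcripts. FOXC2 (chr16:86566829-86569728, plus strand) was listed at 0 in replicates 1 and 2 of HCC827/GR cells, at 0.0373 FPKM in replicate 3, and at 0.0226 and 0.0170 FPKM in HCC827 cells. TCF4 (chr18:55222331-55664787, minus strand) had 0, 0.00729 and 0.000829 FPKM in HCC827/GR cells and 0.00593 and 0.00754 FPKM in HCC827 cells. Its entry lists 7 of 90 GENCODE transcripts and 4 of 63 coding ones. By these entries, all 3 genes were far below the level of any tested factor in both cell lines. FOXC2 has a single exon, and zeros in this table were more frequent for such genes. Of 225 single-exon entries that reached 5 FPKM in some library, 90 (40%) were at 0 in another, against 13 of 6345 (0.205%) with 2 or more exons. Whether this touches the zeros of FOXC2 was not tested.

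By mean level, the order in HCC827/GR cells was SNAI2, ZEB1, SNAI3, SNAI1, ZEB2 and TWIST2, followed by FOXC2, PRRX1 and TCF4 near 0, with TWIST1 left out of the order since its coding mRNA was not measured. SNAI2 overlapped ZEB1, and SNAI1 overlapped ZEB2, which overlapped TWIST2, so these neighbours were not ordered beyond their spread. In HCC827 cells the order was SNAI2, SNAI1, ZEB1, SNAI3, TWIST2 and ZEB2, with SNAI2 overlapping SNAI1, SNAI1 overlapping ZEB1, and SNAI3 overlapping TWIST2. ZEB2 was thus the lowest of the 6 in parental cells, and SNAI1 had a higher mean than ZEB1 there but a lower one in resistant cells. The 10 factors summed to 26.1, 23.7 and 15.7 FPKM in HCC827/GR cells and to 8.61 and 13.6 FPKM in HCC827 cells. SNAI2 took between 15.6% and 51.9% of that sum, and without it the sums were 13.1, 11.4 and 12.4 FPKM against 7.27 and 7.52 FPKM.

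The plot of differences sets the fitted value of each tested entry beside its values under other processing. The groups did not overlap for 4 of the 6 tested factors (46.3% of all entries). ZEB1, ZEB2 and SNAI3 were the 3 that lay higher in HCC827/GR cells without overlap (22.8% of all entries), and SNAI1 was the 1 that lay lower (23.4%).

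**Figure D2:**
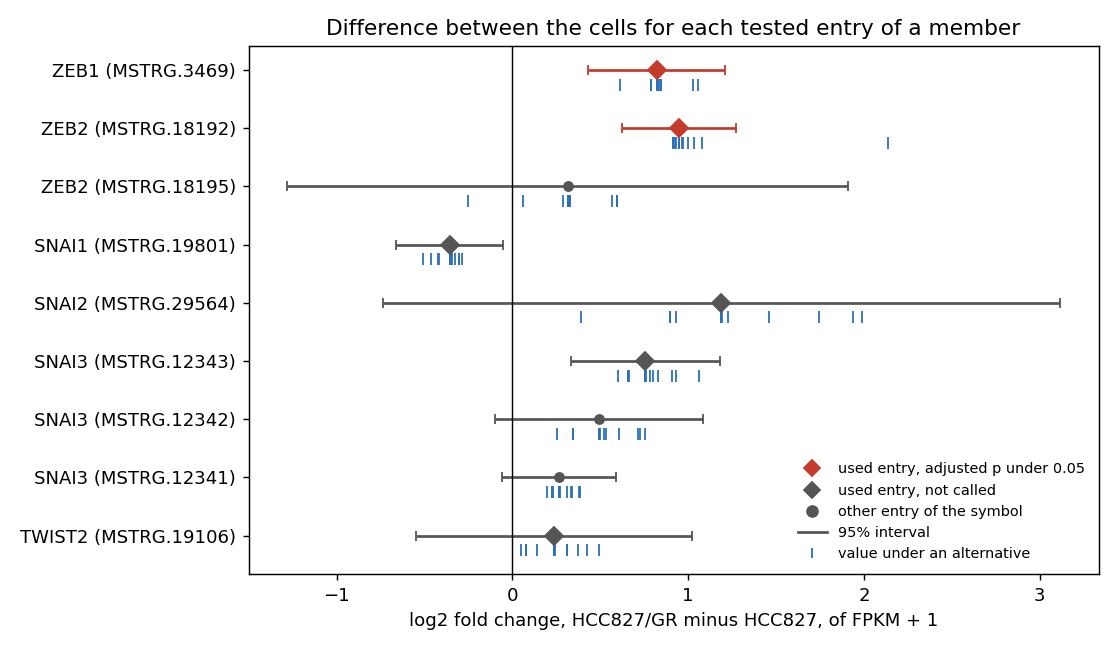
Log2 fold change of FPKM + 1, HCC827/GR minus HCC827, for each tested entry of the 6 expressed factors, with the 95% interval (bars) and the value under each alternative (blue ticks). The intervals of ZEB1 (0.43 to 1.21) and ZEB2 (0.62 to 1.27) lay above 0 in both called genes, and that of SNAI2 ran from -0.74 to 3.11.

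Epithelial genes that ZEB and SNAI proteins are known to repress, or that mark the epithelial state, were lower in HCC827/GR cells. Of a list of 20 such genes, all tested, 13 were called lower and none higher (5.71% and 5.26% of all entries), and none was higher at an unadjusted p under 0.05 from limma. The median log2 fold change was -1.35, against 0.00 over all tested entries. CDH1, which encodes E-cadherin, the classical target, had 8.37, 7.79 and 5.50 FPKM in HCC827/GR cells and 34.8 and 25.9 FPKM in HCC827 cells. The 4 called genes with the largest change were CDH3 (P-cadherin), ST14 (the protease matriptase), RAB25 (an epithelial small GTPase) and EPCAM (an adhesion molecule). CDH3 had 1.28, 2.09 and 0.873 FPKM against 59.5 and 52.7 FPKM (log2 fold change -4.59, standard error 0.23, limma adjusted p = 0.00248). ST14 and EPCAM had log2 fold changes of -3.82 and -3.04, and both kept residual mRNA in the resistant cells, at 1.19 FPKM or more and 7.32 FPKM or more. RAB25 was close to silent there, with 0.0169, 0.0326 and 0.0258 FPKM against 11.9 and 7.87 FPKM (log2 fold change -3.39, standard error 0.18, limma adjusted p = 0.00267). RAB25 passed the filter on low values through HCC827 cells alone, so it could be tested only as a gene lower in the resistant cells. The difference had a negative sign for 19 of the 20, and 7 were not called, among them OCLN, PATJ and DSP, whose groups overlapped, and CLDN3 and CLDN4, which were each at 0 or low in 1 resistant library. The count of 13 was 8 without replicate 1 of HCC827/GR cells and 6 and 7 without replicate 2 or 3 of HCC827 cells, when the CDH1 call was lost too (limma adjusted p of 0.0789 and 0.0549). It was 4 with a library-size covariate.

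The E-box CAGGTG was searched on both strands (CACCTG being its reverse complement) in the RefSeq promoters, from 250 bases before to 50 after the start of transcription (GRCh38.p14). It was found in 20.6% of all 35116 promoters and in 11 of 14 promoters of the epithelial genes (78.6%). The mesenchymal genes below held it in 2 of 13 promoters (15.4%) and the EMT factors themselves in 2 of 20 (10%). Some genes had more than 1 promoter. By gene, the box was found in 24.1% of all genes, 9 of 11 epithelial genes, 2 of 10 mesenchymal genes and 1 of 5 factors. Only 11 of the 20 epithelial genes had a promoter here. The epithelial genes were listed as known ZEB and SNAI targets, so their share was partly set by their choice. The promoters of RAB25 and CRB3, which encodes a polarity protein, are shown because both genes fell and hold the box at 2 and 5 places. The box is in capitals.
RAB25, chr1:156060910-156061209, plus strand: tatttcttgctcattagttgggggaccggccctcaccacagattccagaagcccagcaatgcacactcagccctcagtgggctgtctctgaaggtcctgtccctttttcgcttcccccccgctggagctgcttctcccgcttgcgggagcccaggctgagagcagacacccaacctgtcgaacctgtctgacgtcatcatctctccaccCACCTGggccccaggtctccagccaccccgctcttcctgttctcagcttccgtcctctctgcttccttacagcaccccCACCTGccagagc
CRB3, chr19:6464021-6464320, plus strand: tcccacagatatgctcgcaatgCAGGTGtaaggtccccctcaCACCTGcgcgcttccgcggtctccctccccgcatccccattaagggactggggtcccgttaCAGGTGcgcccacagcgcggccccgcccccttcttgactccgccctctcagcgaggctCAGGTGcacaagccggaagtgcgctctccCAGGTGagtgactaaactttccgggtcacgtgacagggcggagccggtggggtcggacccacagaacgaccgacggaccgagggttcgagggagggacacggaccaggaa
CRB3 had 1.63, 1.89 and 1.29 FPKM in HCC827/GR cells and 5.90 and 4.67 FPKM in HCC827 cells (log2 fold change -1.27, standard error 0.15, limma adjusted p = 0.0145), a call lost without replicate 1 of HCC827/GR cells or either HCC827 library. Of the EMT factors, the box was found in ZEB1 alone, among the 5 with a promoter in the table. That ZEB1 promoter, with 3 boxes, is shown as the one with most boxes among the factors, next to the promoter of the miR-200c and miR-141 host gene with 1 box.
ZEB1, chr10:31318966-31319265, plus strand: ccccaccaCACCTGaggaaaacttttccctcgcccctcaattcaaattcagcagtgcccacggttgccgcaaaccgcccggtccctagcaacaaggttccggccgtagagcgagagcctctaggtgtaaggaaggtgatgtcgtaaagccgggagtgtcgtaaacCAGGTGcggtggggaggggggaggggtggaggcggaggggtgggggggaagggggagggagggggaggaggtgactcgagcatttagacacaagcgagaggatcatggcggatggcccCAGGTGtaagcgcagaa
MIR200CHG, chr12:6962995-6963294, plus strand: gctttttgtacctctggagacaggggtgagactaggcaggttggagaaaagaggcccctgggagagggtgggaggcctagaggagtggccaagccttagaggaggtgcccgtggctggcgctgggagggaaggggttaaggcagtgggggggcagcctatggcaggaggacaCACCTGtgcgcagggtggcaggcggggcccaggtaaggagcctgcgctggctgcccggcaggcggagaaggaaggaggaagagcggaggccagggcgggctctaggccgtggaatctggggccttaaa
A match of letters is a description of the promoter, and binding was not measured here.

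Several of the factors and splicing regulators that maintain the epithelial state and oppose ZEB1 and ZEB2 were also lower. Of a list of 16, 11 were tested, and 7 were called lower (5.71% of all entries) and none higher (5.26%), with none higher at an unadjusted p under 0.05 from limma. The median log2 fold change was -1.24. ESRP1, an epithelial splicing regulator, had 0.0476, 0.1 and 0.0475 FPKM in HCC827/GR cells and 16.3 and 12.3 FPKM in HCC827 cells (log2 fold change -3.83, standard error 0.14, limma adjusted p = 0.00161). It was nearly absent from all 3 resistant libraries, while its paralog ESRP2 was only moderately lower, with 3.47, 3.70 and 3.37 FPKM against 6.00 and 5.63 FPKM. GRHL2, a grainyhead factor that represses ZEB1, had 0.0122, 0.0203 and 0.00963 FPKM against 3.82 and 5.59 FPKM (log2 fold change -2.47). EHF, an epithelial ETS factor, had 0.312, 0.241 and 0.0602 FPKM against 6.18 and 5.52 FPKM (log2 fold change -2.51). OVOL1, a zinc-finger repressor of ZEB1, was at 0, 0.0240 and 0 FPKM against 0.962 and 2.37 FPKM (log2 fold change -1.35), whereas OVOL2, of the same family, had 10.7, 9.38 and 10.3 FPKM against 10.9 and 12.3 FPKM and was not called. ESRP1, GRHL2, EHF and OVOL1 passed the filter on low values through HCC827 cells alone, so they could be tested only as genes lower in the resistant cells. GRHL1, of the family of GRHL2, had 0.536, 0.613 and 0.598 FPKM against 1.61 and 1.68 FPKM. It was called lower (log2 fold change -0.74, limma adjusted p = 0.0232). The calls of GRHL1 and ESRP2 were lost whichever single library was left out. The count of 7 was 3 without any 1 of the HCC827/GR libraries and 4 without replicate 3 of HCC827 cells, and the OVOL1 call was lost without any 1 of the HCC827/GR libraries. It was 2 with a library-size covariate.

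**Figure D3:**
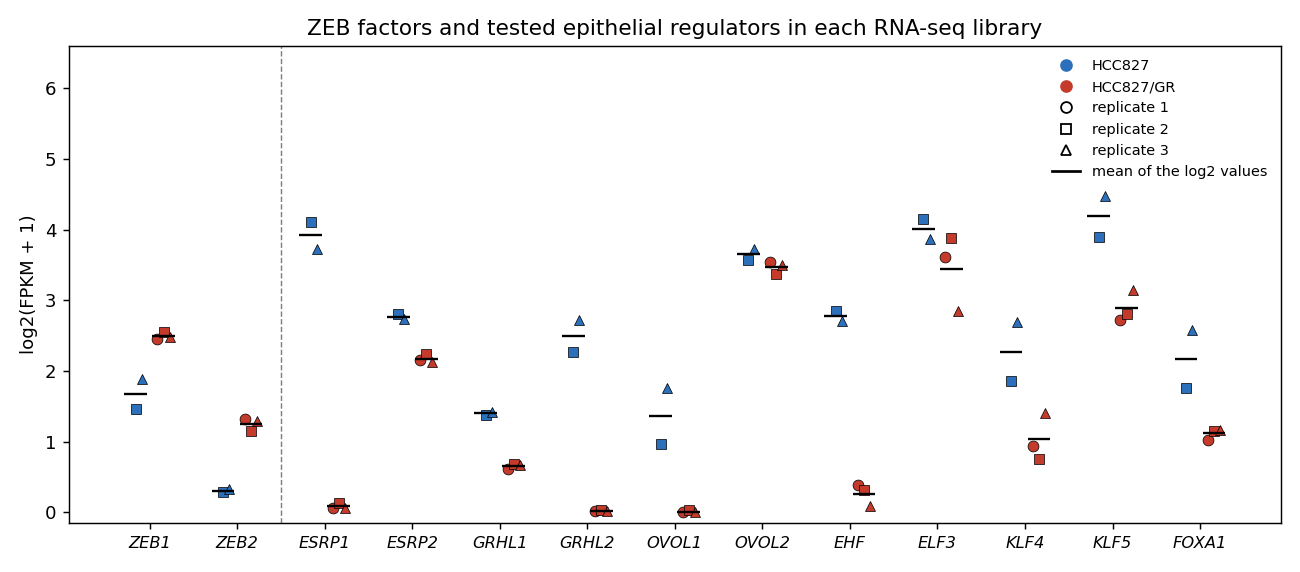
Level as log2(FPKM + 1) of ZEB1 and ZEB2 (left of the dashed line) and of the 11 tested epithelial regulators in each library of HCC827 cells (blue) and HCC827/GR cells (red), with the mean of the log2 values as a bar. ESRP1, GRHL2 and OVOL1 were close to 0 in each HCC827/GR library, with 0.1 FPKM in ESRP1 as the highest value, while OVOL2 stayed between 9.38 and 12.3 FPKM in all 5.

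Mesenchymal genes were called in both directions. Of a list of 20, 11 were tested, of which 3 were called higher (5.26% of all entries) and 1 lower (5.71%), with a median log2 fold change of 0.84. At an unadjusted limma p under 0.05, 7 were higher and 1 lower, against 2168 higher and 2242 lower of all 16189 tested entries. Of those called higher, CDH2, which encodes N-cadherin, had 8.41, 6.85 and 9.95 FPKM against 0.415 and 0.645 FPKM (log2 fold change 2.61), and TAGLN, an actin-binding protein, had 1.57, 1.56 and 1.81 FPKM against 0.615 and 0.350 FPKM (log2 fold change 0.84). FN1, which encodes fibronectin and is commonly counted as mesenchymal, went the other way, with 4.72, 5.37 and 3.99 FPKM against 17.0 and 15.1 FPKM (log2 fold change -1.59, standard error 0.14, limma adjusted p = 0.00794). VIM, which encodes vimentin, was already abundant in HCC827 cells, at 37.8 and 63.3 FPKM, and had 106, 92.9 and 133 FPKM in HCC827/GR cells, but its log2 fold change of 1.14 (standard error 0.28) had a limma adjusted p of 0.0700. The fibrillar collagen genes COL1A2 and COL3A1, the cadherin gene CDH11, ACTA2, MMP2 and THY1 stayed under the filter, as did FBN1 and PDGFRB. Of these untested genes, FBN1 (0.112, 0.0968 and 0.0780 FPKM against 0.755 and 0.458 FPKM), COL3A1, MMP2 and ACTA2 lay lower in HCC827/GR cells without overlap. PDGFRB alone lay higher without overlap. The median of 0.84 does not cover them. TAGLN passed the filter through HCC827/GR cells alone, and its call was lost without any 1 of the 5 libraries and that of FN1 without replicate 2 of HCC827 cells.

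Partners and inhibitors of the helix-loop-helix factors were called in the ID genes alone. Of 8 genes 7 were tested, 1 was called higher and 1 lower (5.26% and 5.71% of all entries), and the median log2 fold change was 0.16. The E proteins TCF3 and TCF12, which pair with TWIST proteins, had 7.73 to 10.1 and 6.17 to 8.42 FPKM in HCC827/GR cells and 7.09 to 8.75 and 4.96 to 5.99 FPKM in HCC827 cells, and neither was called. The entry of their relative TCF4, which lists 4 of 63 coding GENCODE transcripts, was near 0 in the same libraries. ID proteins bind E proteins and keep them from DNA, and the genes of the family diverged. ID1 had 16.5, 21.8 and 15.6 FPKM against 53.5 and 49.8 FPKM (log2 fold change -1.49, standard error 0.17, limma adjusted p = 0.0124). ID3 had 20.6, 18.6 and 19.9 FPKM against 7.22 and 8.39 FPKM (log2 fold change 1.24, standard error 0.11, limma adjusted p = 0.00753). The lower call of ID1 was lost without replicate 1 of HCC827/GR cells or without either HCC827 library.

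The corepressors and chromatin enzymes that ZEB, SNAI and TWIST proteins recruit had few calls. Of 22 genes 20 were tested, none was called higher and 1 was called lower, near the 5.71% of all entries. The median log2 fold change was -0.01. At an unadjusted limma p under 0.05, 1 was higher and 2 lower, against 2168 higher and 2242 lower of all 16189 tested entries. The called gene was RCOR1, a partner of the demethylase KDM1A, with 6.00, 6.06 and 5.98 FPKM in HCC827/GR cells and 10.8 and 10.4 FPKM in HCC827 cells (log2 fold change -0.73, standard error 0.08). This call was lost without replicate 1 of HCC827/GR cells or either HCC827 library.

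Genes that set the stability of the SNAI, TWIST and ZEB proteins showed 1 higher and 2 lower calls among 16 tested of 20 (5.26% and 5.71% of all entries), with a median of 0.08. LATS2, a Hippo kinase that phosphorylates SNAI1, had 6.76, 6.95 and 6.01 FPKM against 3.65 and 2.14 FPKM (log2 fold change 0.98). COPS5, a subunit of the COP9 signalosome, had 6.96, 7.49 and 8.11 FPKM against 13.2 and 13.4 FPKM (log2 fold change -0.75), and FBXL14, the F-box protein that targets SNAI1 and other EMT factors for degradation, had 3.77, 4.22 and 4.58 FPKM against 7.06 and 6.79 FPKM (log2 fold change -0.61). Both falls were of less than 2-fold. The LATS2 call was lost without any 1 library other than replicate 2 of HCC827 cells, that of COPS5 without any but replicate 3 of HCC827/GR cells, and that of FBXL14 without any 1 of the 5. Protein levels were not measured in these libraries.

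Of the TGF-beta and BMP genes that induce or restrain these factors, 16 of 20 were tested. None was called higher and 1 was called lower, a share near the 5.71% of all entries, with a median of 0.09. At an unadjusted limma p under 0.05, 3 were higher and 4 lower, against 2168 higher and 2242 lower of all 16189 tested entries. BMP4, a ligand whose signal induces ID genes, had 2.22, 1.79 and 1.92 FPKM against 11.3 and 8.57 FPKM (log2 fold change -1.87, standard error 0.15, limma adjusted p = 0.00622). Of 24 other transcription factors linked to EMT, 13 were tested, 1 was called higher and 1 lower, near the shares of all entries (5.26% and 5.71%), and the median was 0.09. RUNX2, better known for bone formation, had 3.60, 2.74 and 3.31 FPKM against 1.19 and 1.65 FPKM (log2 fold change 0.80), and TCF7L2, a nuclear effector of WNT signalling, had 1.80, 1.70 and 1.27 FPKM against 3.05 and 3.08 FPKM (log2 fold change -0.66). Neither was called when any 1 library was left out.

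**Figure D4:**
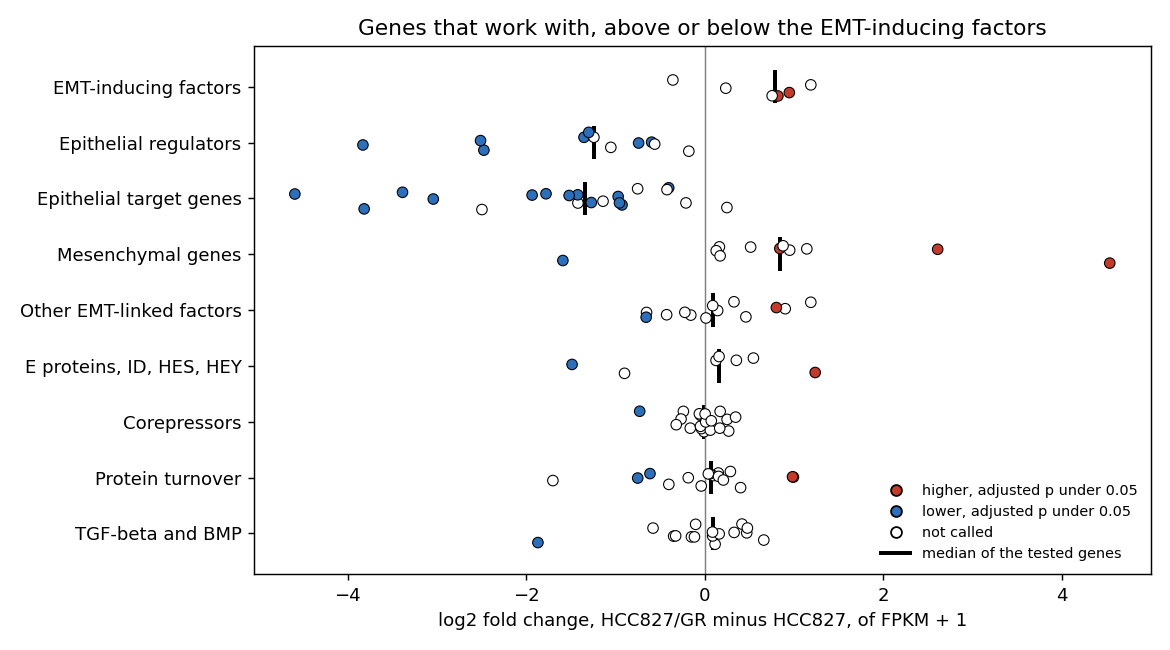
Log2 fold change of FPKM + 1, HCC827/GR minus HCC827, for each tested gene of the EMT-inducing factors and of 8 related lists, in red or blue where the limma adjusted p was under 0.05, with the median of each list as a bar. The medians of the epithelial regulators (-1.24) and epithelial target genes (-1.35) lay below 0, that of the mesenchymal genes (0.84) above it, and those of the partners, corepressors, protein turnover and TGF-beta lists between -0.01 and 0.16.

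Markers of the labelled cell type and of other cells were read beside these results, since fewer cells of a type and less RNA per cell cannot be told apart in bulk libraries. The epithelial keratins were abundant in every library, with KRT18 at 219 FPKM or more, although the summed level of 6 listed lung adenocarcinoma and epithelial markers was 438 to 566 FPKM in HCC827/GR cells and 1033 to 1161 FPKM in HCC827 cells. NKX2-1, a lineage factor of lung epithelium, was at 0.963, 0.762 and 0.415 FPKM against 4.60 and 4.0 FPKM, and SFTPB was at 0.139 FPKM or less. The 8 fibroblast markers summed to 2.55 to 2.60 FPKM in HCC827/GR cells and to 3.03 to 3.30 FPKM in HCC827 cells, of which PDGFRA made up most, and DCN, LUM, FAP and POSTN were near 0. PDGFRB and COL6A3 were low but went the other way, with PDGFRB at 0.278, 0.184 and 0.184 FPKM in HCC827/GR cells and 0.00777 and 0.0147 FPKM in HCC827 cells, and COL6A3 at 0.107, 0.106 and 0.120 FPKM against 0.0389 and 0.0169 FPKM. Their part in the results was not tested. Of the blood and endothelial markers, PTPRC, VWF, CDH5 and LYZ were near 0, and PECAM1 was at 0 in HCC827/GR cells and at 4.34 and 3.32 FPKM in HCC827 cells. CD68, which many cell lines express, had 30.8 to 38.9 FPKM in all 5.

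By the pattern over the 5 libraries, the entries most like ZEB1 in Euclidean distance of centred log2(FPKM + 1) values were MAPK11 (0.0416), AP5M1 (0.105) and BEND4 (0.112). MAPK11, a p38 kinase, had 3.55, 3.76 and 3.51 FPKM in HCC827/GR cells and 1.26 and 2.06 FPKM in HCC827 cells, with the same order of the parental libraries as ZEB1. The entries most like ZEB2 were ASPHD1 (0.0916), TRIP6 (0.104) and AC127024.6 (0.104). TRIP6, a LIM-domain protein of cell adhesions, had 84.6, 81.8 and 88.9 FPKM against 41.5 and 44.5 FPKM. The likeness is in the log2 pattern, and the level of TRIP6 was far above that of ZEB2.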

How the data were processed

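RNA of HCC827/GR cells and HCC827 cells was measured by RNA-sequencing. According to the paper and the submitters' processing notes, the authors trimmed reads with Cutadapt, checked them with FastQC, mapped them with Bowtie2 and TopHat2 and made the deposited FPKM values with StringTie and Ballgown (versions not given in the sources used here). The notes name the build hg18, and the table holds no coordinates. The methods and the deposited labels describe different library kits and read layouts, and neither states strand. 1 FPKM column matched no sample and was not used.

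Positions came from GENCODE release 29 (GRCh38) through Ensembl transcript identifiers, of which 135164 of 135299 matched. limma 3.58.1 in R 4.3.3 (trend, two-sided) was applied to log2(FPKM + 1) of 16189 entries, those with a mean not below 0.5 FPKM, with Benjamini-Hochberg adjustment. The exact permutation test used the absolute difference of means over 10 regroupings. The other steps ran in Python 3.11.15 (scipy 1.17.1, numpy 2.4.6, pandas 2.3.3), with plots by matplotlib 3.10.9. The fit was tried on simulated data with a common spread and changes larger than those of ZEB1 and ZEB2, which does not cover the calls given here.

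Members, lists and alternatives were chosen with earlier results of these data known. Named were all 10 factors, up to 4 called genes of each list with the largest change, CDH1, CDH2 and VIM, tested antisense genes, and the 3 entries most like each called factor. One gene that this rule names is not reported here. CRB3, ESRP2, OVOL2, TCF3, TCF12 and others given as examples within a list were added after their values were seen. Each library was left out in turn. Other alternatives were quantile normalization or median-ratio scaling, a smaller pseudocount (0.1), a filter at 1 FPKM or none, an untrended limma fit, a covariate for library size, the replicate number as block, and summing the entries of 1 symbol. Of 14 promoters of epithelial genes matched in RefSeq, none was of CDH1.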

Additional observations from a re-analysis of the deposited data

How the results depend on the processing

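The 6 expressed factors stayed 6 at each limit tried, and SNAI1, SNAI2, SNAI3, TWIST2, ZEB1 and ZEB2 kept their direction in their used entries under every alternative that could be fitted. The second ZEB2 entry ranged from -0.25 to 0.60 with a library left out and reversed to -0.25 without replicate 2 of HCC827/GR cells, the library that holds most of its signal. The ZEB1 call was lost under 7 of 14 alternatives and the ZEB2 call under 9 of 13, with a limma adjusted p up to 0.177 and 0.150. Factors called higher numbered 3 with median-ratio scaling or quantile normalization, and 2 with a pseudocount of 0.1 or an untrended fit. They numbered 1 with a mean of at least 1 FPKM (ZEB2 then falls under the filter) or with entries of 1 symbol summed. The count was 0 with no filter, with the library-size covariate, with the replicate block and without any 1 of the HCC827/GR libraries. With no filter, the covariate and the block, 3 factors were higher at an unadjusted limma p under 0.05. So were 2822 of 36011, 1692 of 16189 and 1676 of 16189 entries in turn.

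With the library-size covariate, 145 entries were called in all against 1775. The lists then had 4 epithelial genes and 2 epithelial regulators lower, 1 mesenchymal gene higher and 0 lower, and 0 calls among the other lists. At an unadjusted limma p under 0.05, 14 epithelial genes were lower with the covariate, as were 1720 of all 16189 tested entries. With the replicate number as a block, every list had 0 calls and so did all entries together, with 1676 higher and 1869 lower at an unadjusted limma p under 0.05, 16 epithelial genes among the lower. Same-numbered libraries showed no large shared deviation (r across genes of 0.03 and 0.01 over the 2 shared numbers). With only 2 HCC827 libraries these values are not independent, and they cannot show whether the numbers mark pairs. Since the block left 0 calls over all entries, a call lost under it is not read as a weaker effect. A pseudocount of 0.1 gave 0 lower calls of other EMT-linked factors and 0 higher calls for protein turnover. No filter gave 0 higher calls in these same lists and 1 lower for protein turnover. Summed entries gave 0 lower calls of other EMT-linked factors. The causes were not tested.

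With each library left out, lower calls ranged from 6 to 9 for epithelial genes, 3 to 5 for epithelial regulators, 0 to 1 for mesenchymal genes, for the E protein and ID list, for corepressors and for protein turnover. Higher calls ranged from 0 to 1 for protein turnover and for the TGF-beta and BMP list, and other EMT-linked factors had 0 to 0 in both directions. Over all tested entries, calls fell from 1775 to 489, 777 and 962 without replicate 1, 2 or 3 of HCC827/GR cells. The loss of calls was thus not particular to these lists or to the factors. Where an HCC827 library was left out, the lone one that remained is assumed to vary like the other group. Read depth is unknown, which limits what a value near 0 can say.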

Other observations

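SIAH2, a ubiquitin ligase of the protein turnover list, was singled out after its values were seen. It had 10.5, 12.2 and 1.65 FPKM in HCC827/GR cells and 2.04 and 13.4 FPKM in HCC827 cells, so it was low in replicate 3 of HCC827/GR cells and replicate 2 of HCC827 cells, the libraries of each group in which SNAI2 was lowest. ETS1, also chosen after its values were seen, was instead highest in replicate 3 of HCC827/GR cells, with 21.0 FPKM against 3.02 to 4.59 FPKM in the other 4 libraries.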
